A study of Mus musculus with 34 samples.

Results

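The 10 genes examined here encode enzymes that make NAD or that divert its precursors, namely *Afmid*, *Kmo*, *Kynu*, *Haao*, *Acmsd*, *Qprt*, *Nampt*, *Naprt*, *Nmnat1* and *Nadsyn1*. They were chosen by name as members of the de novo and salvage routes. All 10 were among the 23509 genes counted in kidney RNA of 34 mice, with *Naprt* under its older name Naprt1, and all 10 were among the 15644 genes with enough reads to be tested. The mice were C57BL6 and were killed on postnatal day 28 (P28). *Pkd2*-KO mice received RGLS4326 at 20 mg per kg (n = 11) or PBS (n = 11) under the skin on P10, P11, P12 and P19, and wildtype mice without treatment (UNT, n = 12) served for comparison. RGLS4326 is a short chemically modified oligonucleotide that binds the seed of miR-17. In *Pkd2*-KO mice (Pkhd1/cre;*Pkd2* F/F) a Cre recombinase driven by the *Pkhd1* promoter, which is active in kidney tubules and above all in collecting ducts, deletes floxed *Pkd2* alleles, so cells outside its reach keep the gene. The labels spell this genotype "Pdk2KO". The UNT mice received no injection, so genotype and injection cannot be told apart in any comparison with them, and the sex of the mice is not given.

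NAD is a carrier of electrons and a substrate of sirtuins and poly(ADP-ribose) polymerases. Kidney, with liver, is one of the tissues that can build it de novo from tryptophan. In that route Afmid releases kynurenine from formylkynurenine, Kmo hydroxylates it, Kynu cleaves the product and Haao opens the ring, after which the intermediate either closes on its own to quinolinate, which Qprt turns into nicotinic acid mononucleotide, or is decarboxylated by Acmsd and lost to the route. Nampt recycles nicotinamide, Naprt takes up nicotinic acid, Nmnat1 adds the adenylate group to the mononucleotides in the nucleus and Nadsyn1 amidates the acid form to NAD. In the kidney the de novo enzymes are known as products of the proximal tubule.

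RGLS4326 is directed at the miR-17 family, so the sequences that carry this interaction are shown first. The mature mouse miRNAs below (RefSeq, GRCm38.p6, 5′ to 3′, seed bases 2 to 8 in capitals) share 1 seed.
mmu-miR-17-5p: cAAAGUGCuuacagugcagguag
mmu-miR-20a-5p: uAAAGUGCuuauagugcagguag
mmu-miR-93-5p: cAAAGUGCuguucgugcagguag
mmu-miR-106b-5p: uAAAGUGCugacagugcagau

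For each gene the longest 3′UTR in GENCODE M21 (GRCm38) was searched for GCACTTT, the complement of the seed, and for CACTTTA, the complement of bases 2 to 7 followed by A. Of the 10 genes only *Nmnat1* held a match, against 3120 of 14217 tested genes with an annotated 3′UTR (21.9%). It lies on chromosome 4 at 149469269 to 149469275 on the minus strand, in the 3′UTR, which is 2060 bases long. The stretch around it is shown with the match in capitals.
Nmnat1 3′UTR: acgtgcgcggtCACTTTAgtatgggtgat
The match is a description of letters in the annotation. Binding was not measured here.

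Each library held 17603122 to 54981992 reads in genes, and levels are given as CPM, the usual scaling of counts to a fixed library total, here with TMM factors. The lowest count of any member in any library was 115, for *Nmnat1* in an RGLS4326-treated mouse, so counting error is a sizeable part of the spread of that gene. The deleted gene *Pkd2* ranged from 98.0 to 214.5 CPM (median 165) in PBS-treated mice and from 219.6 to 338 CPM (median 274) in UNT mice, without overlap. RGLS4326-treated mice, of the same genotype as the PBS group, ranged from 170.03 to 236.9 CPM (median 210.4), which overlaps both other groups, so *Pkd2* alone does not separate every mutant mouse from UNT. Reads in no gene made up 9.84 to 11.3% of reads in UNT, 5.18 to 8.995% in PBS and 4.94 to 12.0% in RGLS4326 libraries. Reads without a unique position made up 22.8 to 25.7% in UNT, 14.8 to 19.4% in PBS and 14.8 to 19.1% in RGLS4326 libraries, so UNT stood apart from both other groups, and the part of this difference in the comparisons with UNT was not tested. PBS replicates 2 and 11 held adrenal cortex transcripts, with a summed level of *Cyp11a1*, *Cyp11b1* and *Star* of 478 and 791 CPM, against at most 23.2 CPM in the other PBS libraries, 25.5 CPM in any RGLS4326 library and 4.04 CPM in any UNT library. The tables are numbered in 3 sets, each of which holds all 3 groups with 3 or 4 mice, and values within these sets are given where they bear on a result.

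Levels per kb were divided by the union of exons of all annotated transcripts of a gene. The length of the transcripts present in kidney is not known here, so the order of genes below holds for that union only. In normal kidney the salvage enzyme *Nampt* stood at the top of the genes by this measure, with 64.8 ± 15.8 CPM per kb (SD, n = 12). *Acmsd* followed with 32.0 ± 8.68 CPM per kb and *Kmo* with 31.3 ± 6.65 CPM per kb, and their ranges overlapped almost in full. *Haao* at 23.0 ± 3.94 and *Afmid* at 22.9 ± 3.36 CPM per kb were a pair that could not be ordered. *Qprt* and *Naprt* lay at 18.03 ± 1.81 and 17.4 ± 2.36 CPM per kb, again within each other's spread. *Nadsyn1* at 10.0 ± 0.65 and *Kynu* at 8.72 ± 1.38 CPM per kb overlapped, and *Nmnat1* was last with 3.70 ± 0.31 CPM per kb. In PBS-treated kidney the order differed below *Nampt* (20.9 ± 3.61 CPM per kb, n = 11). *Naprt* (10.5 ± 1.55) and *Qprt* (10.3 ± 2.10 CPM per kb) now came next, ahead of *Kmo* (6.10 ± 2.28) and *Acmsd* (5.18 ± 2.47 CPM per kb). In RGLS4326-treated kidney *Nampt* (26.1 ± 3.33 CPM per kb, n = 11) was again first, and *Qprt* (10.8 ± 1.97), *Naprt* (10.1 ± 1.13) and *Acmsd* (8.69 ± 2.19 CPM per kb) were within each other's range.

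To examine the genes in polycystic kidney, PBS-treated *Pkd2*-KO mice were compared with UNT mice. All 10 genes fell. The 4 enzymes from formylkynurenine to the ring-opened intermediate and Acmsd fell by 2.29 to 2.81 on the log2 scale, *Nampt* and *Nadsyn1* by 1.63 and 1.28, and *Qprt*, *Nmnat1* and *Naprt* by 0.81, 0.79 and 0.73. Among all genes tested, 39% were called lower and 43.1% higher (quasi-likelihood test of edgeR, p under 0.05 after Benjamini-Hochberg adjustment), and the median log2 fold change was 0.04, against -1.96 over the 10 members. In 8 of the 10 genes every PBS-treated mouse lay below every UNT mouse, as it did for 19.8% of all genes tested, while 22.7% were separated the other way.

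**Figure D1:**
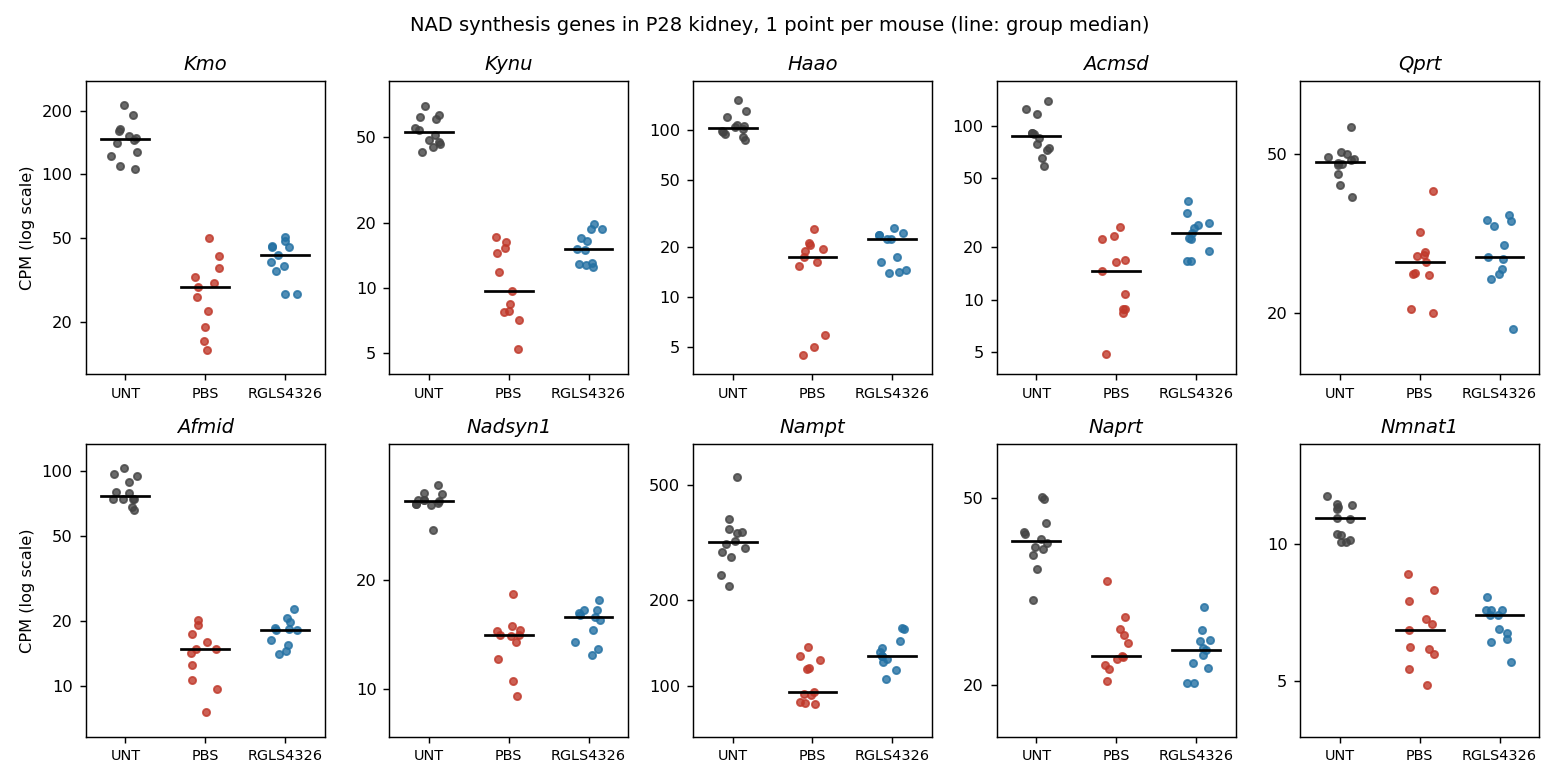
Level of each NAD synthesis gene in CPM (vertical axis, log scale, own range in each panel) in UNT (n = 12), PBS (n = 11) and RGLS4326 mice (n = 11), with 1 point per mouse and a line at the group median. UNT mice lie above both *Pkd2*-KO groups for every gene, apart from 1 PBS-treated mouse each in *Qprt* and *Naprt*.

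*Afmid*, the formamidase that yields kynurenine, ranged from 66.2 to 103 CPM in UNT mice (median 76.8) and from 7.57 to 20.3 CPM in PBS-treated mice (median 14.96). The groups were far apart, and the log2 fold change was -2.50 (adjusted p = 1.19e-19 in edgeR, SE 0.12). Its exons overlap *Gm20708* on the same strand over 1566 bases and *Tk1* on the other strand, so some of its reads may belong to these genes or have been left out as ambiguous. *Kmo*, the kynurenine 3-monooxygenase, ranged from 105 to 213 CPM in UNT mice (median 147) and from 14.6 to 49.9 CPM in PBS-treated mice (median 29.1). Its log2 fold change was -2.36 (adjusted p = 2.21e-15 in edgeR, SE 0.17), and no PBS-treated mouse came near the lowest UNT mouse.

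*Kynu*, the kynureninase, ranged from 42.5 to 69.6 CPM in UNT mice (median 52.3) and from 5.17 to 17.1 CPM in PBS-treated mice (median 9.67), a log2 fold change of -2.29 (adjusted p = 8.25e-16 in edgeR, SE 0.15). *Haao*, the dioxygenase of 3-hydroxyanthranilate, showed the lowest fold change of the 10 genes in the fit of all libraries, with *Acmsd* (-2.62, SE 0.21) close to it. *Haao* ranged from 87.1 to 152 CPM in UNT mice (median 104) and from 4.45 to 25.4 CPM in PBS-treated mice (median 17.2), a log2 fold change of -2.81 (adjusted p = 2.66e-14 in edgeR, SE 0.22). Within the PBS group 3 mice stood apart for *Haao*, replicates 2, 3 and 4, at 5.89, 5.01 and 4.45 CPM, while the other 8 were at 15.2 CPM or more.

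*Acmsd*, the decarboxylase at the branch point, ranged from 58.6 to 139 CPM in UNT mice (median 86.9) and from 4.87 to 26.1 CPM in PBS-treated mice (median 14.6), a log2 fold change of -2.62 (adjusted p = 1.09e-13 in edgeR, SE 0.21). Its exons overlap the antisense gene *2900009J06Rik* over 94 bases, and the strand setting of the counting is not given in the sources used here. *Qprt*, which takes the other branch to the mononucleotide, fell less. It ranged from 39.1 to 58.5 CPM in UNT mice (median 47.8) and from 20.1 to 40.3 CPM in PBS-treated mice (median 26.9), a log2 fold change of -0.81 (adjusted p = 1.96e-09 in edgeR, SE 0.10). PBS replicate 8, at 40.3 CPM, was the only PBS-treated mouse within the UNT range.

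*Nampt*, the rate-limiting enzyme of salvage from nicotinamide, ranged from 223 to 536 CPM in UNT mice (median 316) and from 86.9 to 137 CPM in PBS-treated mice (median 95.5). The groups did not overlap, and the log2 fold change was -1.63 (adjusted p = 6.64e-16 in edgeR, SE 0.11). *Naprt*, the entry of nicotinic acid, ranged from 30.3 to 50.2 CPM in UNT mice (median 40.5) and from 20.4 to 33.2 CPM in PBS-treated mice (median 23.0), a log2 fold change of -0.73 (adjusted p = 1.27e-10 in edgeR, SE 0.08). Here too a single mouse, PBS replicate 8, lay within the UNT range, and 277 bases of exon are shared with *Eef1d* on the same strand.

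The enzymes shared by the routes behaved unequally. *Nadsyn1*, the NAD synthetase, ranged from 27.6 to 36.8 CPM in UNT mice (median 33.3) and from 9.57 to 18.3 CPM in PBS-treated mice (median 14.1), a log2 fold change of -1.28 (adjusted p = 3.08e-17 in edgeR, SE 0.08). *Nmnat1*, the nuclear adenylyltransferase and the member with a miR-17 seed match, ranged from 10.1 to 12.7 CPM in UNT mice (median 11.4) and from 4.91 to 8.57 CPM in PBS-treated mice (median 6.48). Its groups did not overlap, and its log2 fold change was -0.79 (adjusted p = 2.35e-11 in edgeR, SE 0.08).

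Beside these differences the 12 proximal tubule markers fell in 12 of 12 cases, with log2 fold changes from -3.74 to -2.13, led by *Slc7a13* (-3.74), *Miox* (-3.64) and *Gatm* (-3.28). Their summed level ranged from 15773 to 21331 CPM in UNT mice and from 1339 to 4843 CPM in PBS-treated mice. All 6 markers of injured tubule rose, with *Havcr1* (9.30), *Lcn2* (8.23) and *Sox9* (3.90) in front, as did all 8 macrophage markers, all 6 fibroblast markers and all 5 collecting duct markers, while all 4 podocyte markers fell. Of the 4 thick ascending limb markers 3 were called lower, led by *Slc12a1* (-2.11), and *Cldn16* higher (0.59). Of the 5 endothelial markers 3 were called lower and 2 higher, and the 3 neutrophil markers tested and 2 of 3 adipocyte markers were called higher. Of the 3 liver markers 2 were called lower, *Alb* (-2.72) and *Apoa2* (-1.54), with summed levels of 24.7 to 103 CPM in UNT mice and 15.7 to 68.7 CPM in PBS-treated mice. The part of these cell types in the fall of the 10 genes was not tested, and in whole kidney fewer cells of a type and less RNA per cell cannot be told apart. The median log2 fold change of the proximal tubule markers was -2.82.

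The fall was seen in each part of the data. Within numbering sets 1, 2 and 3 alone all 10 genes were called lower, as were 5585 of 15737, 5659 of 15944 and 4850 of 15676 genes tested. The log2 fold changes were -3.79, -2.64 and -2.39 for *Haao* and -0.93, -0.95 and -0.43 for *Naprt*. In set 3 *Acmsd* (-2.69), *Kmo* (-2.54), *Afmid* (-2.41) and *Kynu* (-2.40) were lower than *Haao*. Without PBS replicates 2 and 11 the count was again 10 of 10, with 5969 of 15706 genes called lower. Scaling by library size alone moved the median of all genes to 0.33 and the calls to 8970 higher and 4099 lower, from 6746 and 6095, and the 10 genes were still called lower under it, from -2.51 for *Haao* to -0.44 for *Naprt*.

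**Figure D2:**
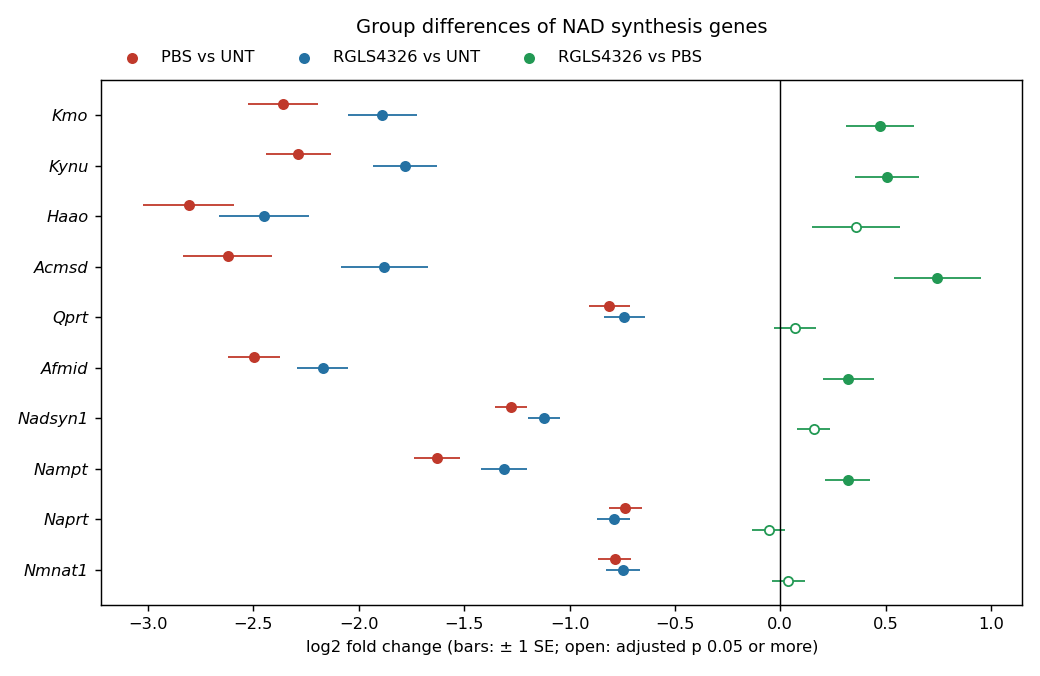
Log2 fold change (horizontal axis) of each gene in PBS vs UNT, RGLS4326 vs UNT and RGLS4326 vs PBS, with bars of ± 1 SE and open points where the edgeR adjusted p was 0.05 or more. PBS vs UNT runs from -2.81 for *Haao* to -0.73 for *Naprt*, and RGLS4326 vs PBS from -0.06 for *Naprt* to 0.74 for *Acmsd*.

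To examine whether the anti-miR changed these genes in cystic kidney, RGLS4326-treated mice were compared with PBS-treated mice. Of the 10 genes 5, *Acmsd*, *Kynu*, *Kmo*, *Afmid* and *Nampt*, rose, by 0.32 to 0.74 on the log2 scale, and none fell. Among all genes tested, 15.3% were called higher and 18.5% lower, and the median log2 fold change was 0.00, against 0.32 over the members. For every one of the 10 genes the groups overlapped, and of all genes 0.0447% lay wholly above and 0.0192% wholly below the PBS range.

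*Acmsd* ranged from 16.8 to 37.1 CPM in RGLS4326-treated mice (median 24.1), a log2 fold change against PBS of 0.74 (adjusted p = 0.00923 in edgeR, SE 0.21), and all 11 treated mice were above the PBS mean of 14.7 CPM. *Kynu* ranged from 12.5 to 19.7 CPM (median 15.1), with a log2 fold change of 0.51 (adjusted p = 0.0136 in edgeR, SE 0.15) and again 11 of 11 mice above the PBS mean. The groups overlapped, with 4 treated mice above the highest PBS-treated mouse for *Acmsd* and 3 for *Kynu*. *Kmo* ranged from 27.0 to 50.6 CPM (median 41.5), with a log2 fold change of 0.47 (adjusted p = 0.0252 in edgeR, SE 0.16) and 9 of 11 mice above the PBS mean.

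*Afmid* ranged from 14.1 to 22.9 CPM (median 18.3), with a log2 fold change of 0.32 (adjusted p = 0.0377 in edgeR, SE 0.12). *Nampt* ranged from 106.3 to 160.2 CPM (median 128), with a log2 fold change of 0.32 (adjusted p = 0.0243 in edgeR, SE 0.11) and 11 of 11 mice above the PBS mean. Only 3 treated mice exceeded the highest PBS-treated mouse for *Nampt*, and 2 did so for *Afmid*.

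The other 5 genes did not pass the test. *Haao* ranged from 13.8 to 26.03 CPM in treated mice (median 22.1), a log2 fold change of 0.36 (adjusted p = 0.172 in edgeR, SE 0.21). *Nadsyn1* ranged from 12.4 to 17.7 CPM (median 15.8), a log2 fold change of 0.16 (adjusted p = 0.106 in edgeR, SE 0.08). Both lay within the PBS range apart from 1 mouse for *Haao*. *Qprt* ranged from 18.3 to 35.1 CPM (median 27.6), with a log2 fold change of 0.07 (adjusted p = 0.586 in edgeR, SE 0.10). *Naprt* ranged from 20.1 to 29.3 CPM (median 23.7), with a log2 fold change of -0.06 (adjusted p = 0.6003 in edgeR, SE 0.08). *Nmnat1* ranged from 5.52 to 7.65 CPM (median 6.97), with a log2 fold change of 0.04 (adjusted p = 0.720 in edgeR, SE 0.08). For these 3 genes no treated mouse lay above the PBS range, and 2 lay below it for *Naprt* and 1 for *Qprt*.

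The count of 5 varied with the libraries and covariates used. It was 1, *Acmsd* (0.62, edgeR adjusted p = 0.0407), without PBS replicates 2 and 11, the libraries with adrenal transcripts, where 2836 of 15706 genes were called (1205 higher). The log2 fold changes there were 0.39 for *Kynu*, 0.37 for *Kmo*, 0.28 for *Nampt* and 0.23 for *Afmid*. The count was between 4 and 6 when any single PBS or RGLS4326 library was left out, with 4023 to 6209 of all genes called. *Acmsd*, *Kynu*, *Kmo* and *Nampt* were called in each of these 22 fits, *Afmid* in 12 of them, with edgeR adjusted p up to 0.0728, and *Nadsyn1* in 1, without PBS replicate 8. Once the share of reads outside genes entered as covariate, 0 of 10 genes were called, while 5 had an unadjusted p under 0.05 in that edgeR fit and 89 of all 15644 genes were called. The log2 fold changes in that fit were 0.59 for *Acmsd*, 0.47 for *Kmo*, 0.44 for *Kynu*, 0.32 for *Afmid* and 0.28 for *Nampt*. Within numbering sets 1, 2 and 3 alone the counts were 2, 1 and 0, and 6, 1 and 2 genes passed 0.05 without adjustment. Of all genes 54 of 15737, 4065 of 15944 and 0 of 15676 were called in these edgeR fits, and 2826 passed 0.05 without adjustment in set 3. In 1 edgeR fit of all libraries with group and set together, which differs slightly from the fits of each set alone, the log2 fold changes in sets 1, 2 and 3 were 1.35, 0.06 and -0.08 for *Haao*, 1.06, -0.04 and 0.48 for *Kmo* and 0.40, 0.25 and 0.33 for *Nampt*. In that fit a test of the difference between sets (edgeR F test of the interaction) called 0 of the 10 genes and 0% of all genes, with unadjusted p under 0.05 for *Haao* (0.0117), *Afmid* (0.0174) and *Kmo* (0.0227) and a smallest adjusted p of 0.653.

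Of the 12 proximal tubule markers, 7 were called higher and 0 lower in the same comparison, with *Slc5a12* (0.90), *Gatm* (0.87) and *Miox* (0.76) in front, and their summed level ranged from 3034 to 5222 CPM in RGLS4326-treated mice. Of the 6 injured tubule markers 3 were called lower, led by *Lcn2* (-0.80), *Krt18* (-0.77) and *Krt8* (-0.60), and of the 8 macrophage markers 4, led by *Cd68* (-0.80). All 4 podocyte markers were called higher, 3 of 5 collecting duct and 2 of 3 adipocyte markers lower, 3 of 5 endothelial markers higher, 2 of 4 thick ascending limb markers higher (*Slc12a1* at 0.56 and *Umod* at 0.31) and 1 lower (*Cldn16* at -0.27), 0 of 3 neutrophil markers either way in edgeR (2 at an unadjusted p under 0.05), and 1 of 6 fibroblast and 1 of 3 liver markers higher. The part of these markers in the treatment differences of the members was not tested.

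Against UNT mice, RGLS4326-treated kidneys remained low. All 10 genes were called lower, by 0.74 to 2.45 on the log2 scale, and in all 10 every treated mouse lay below every UNT mouse, against 36.9% of all genes called lower (40.8% higher) and 16.1% with such a separation (20.7% with the opposite one). *Haao* (-2.45, SE 0.21, edgeR adjusted p = 9.02e-13), *Afmid* (-2.17, SE 0.12) and *Kmo* (-1.89, SE 0.16) were furthest from normal. *Acmsd* stood at -1.88 (SE 0.21) and *Kynu* at -1.78 (SE 0.15), *Nampt* at -1.31 (SE 0.11) and *Nadsyn1* at -1.12 (SE 0.08). *Naprt* (-0.79, SE 0.08), *Nmnat1* (-0.75, SE 0.08) and *Qprt* (-0.74, SE 0.10, edgeR adjusted p = 1.78e-08) were nearest. The PBS and UNT mice each serve in 2 of the 3 comparisons, which are therefore not independent.

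Because Qprt and Acmsd lie on opposite branches after the ring-opened intermediate, the ratio of their reads within a library was compared between groups, a value that library size does not touch. Such a ratio restates the fold changes of its genes given above, so its p-values are no separate support for them. The log2 ratio of *Qprt* to *Acmsd* ranged from -1.83 to -0.39 in UNT mice (mean -0.89 ± 0.42, SD), from 0.29 to 2.35 in PBS-treated mice (1.03 ± 0.59) and from -0.51 to 1.06 in RGLS4326-treated mice (0.23 ± 0.51). Reads of *Acmsd* thus exceeded those of *Qprt* in every UNT mouse and fell short of them in every PBS-treated mouse. The difference was 1.91 between PBS and UNT (two-sided permutation test, p = 2e-05, the smallest it can give, adjusted p = 4e-05 over 6 tests) and -0.80 between RGLS4326 and PBS (permutation p = 0.00284, adjusted p = 0.00341), with 10 of 11 treated mice below the PBS mean. Between RGLS4326 and UNT it was 1.12 (permutation p = 2e-05, adjusted p = 4e-05). Within numbering sets 1, 2 and 3 the RGLS4326 to PBS difference was -1.002, -0.71 and -0.75 (exact permutation p = 0.0571, 0.286 and 0.0857), each with 3 or 4 mice a group.

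**Figure D3:**
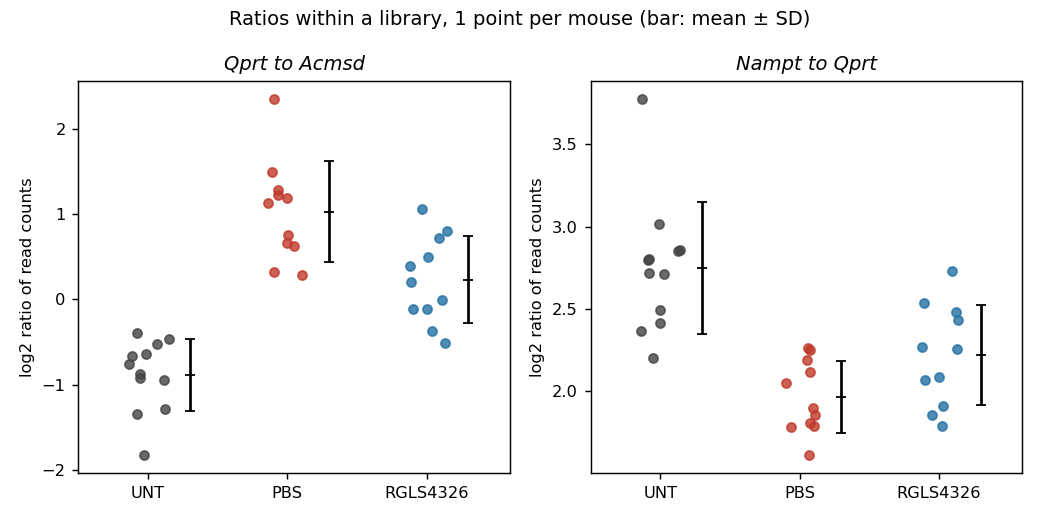
Log2 ratio of read counts (vertical axis) of *Qprt* to *Acmsd* and of *Nampt* to *Qprt* in each mouse by group, with bars at the mean ± SD. The *Qprt* to *Acmsd* ratio is below 0 in all UNT mice and above 0 in all PBS-treated mice.

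The log2 ratio of *Nampt* to *Qprt*, set as salvage against the de novo step to the mononucleotide, ranged from 2.20 to 3.78 in UNT mice (2.75 ± 0.40), from 1.61 to 2.26 in PBS-treated mice (1.97 ± 0.22) and from 1.79 to 2.73 in RGLS4326-treated mice (2.22 ± 0.31). The difference was -0.79 between PBS and UNT (permutation p = 2e-05, adjusted p = 4e-05), 0.26 between RGLS4326 and PBS (permutation p = 0.0377, adjusted p = 0.0377, with 8 of 11 treated mice above the PBS mean) and -0.53 between RGLS4326 and UNT (permutation p = 0.00098, adjusted p = 0.00147). Reads of *Nampt* outnumbered those of *Qprt* in every mouse. Within the numbering sets the RGLS4326 to PBS difference in this ratio was 0.08, 0.28 and 0.42 (exact permutation p = 0.743, 0.286 and 0.114).

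How the genes varied among mice of 1 group was examined next. The coefficient of variation in UNT mice ran from 6.49% for *Nadsyn1* and 8.50% for *Nmnat1* to 27.1% for *Acmsd*. In PBS-treated mice it was 47.6% for *Acmsd*, 46.3% for *Haao*, 38.2% for *Kynu* and 37.4% for *Kmo*, against 14.8% for *Naprt* and 17.03% for *Nadsyn1*. In RGLS4326-treated mice the same 4 genes were at 25.1%, 23.3%, 17.1% and 20.1%, so the treated mice lay closer together for each of them. The spread itself was not tested.

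Levels were then set against the summed level of the 12 proximal tubule markers within each group, as log2(CPM + 1) of the gene and log2 of the sum. Among PBS-treated mice (n = 11) *Kmo* followed the sum closely, with Pearson's r = 0.97 (permutation p = 1e-05, adjusted p = 0.0003 over 30 relations), Spearman's rho = 0.97 (permutation p = 2e-05, adjusted p = 0.0006) and r = 0.96 without the 2 mice farthest from the median of the sum. *Afmid* (r = 0.93, rho = 0.92, 0.93 without them), *Acmsd* (0.93, 0.90 and 0.92), *Haao* (0.88, 0.87 and 0.78), *Kynu* (0.87, 0.88 and 0.92) and *Nampt* (0.85, 0.80 and 0.87) did so too, with adjusted permutation p of Pearson's r from 0.0003 to 0.00773. In that group *Qprt* (r = 0.72, rho = 0.87, adjusted permutation p = 0.0195) and *Nadsyn1* (r = 0.69, rho = 0.63, adjusted permutation p = 0.0317) also passed by Pearson's r, the latter not by rho (adjusted permutation p = 0.0874), while *Nmnat1* (r = 0.55, adjusted permutation p = 0.132) and *Naprt* (r = 0.46, adjusted permutation p = 0.235) did not.

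Among RGLS4326-treated mice (n = 11) 4 of the 10 genes passed, *Haao* (r = 0.89, rho = 0.89, 0.83 without the 2 farthest mice), *Afmid* (0.87, 0.84 and 0.79), *Kmo* (0.86, 0.90 and 0.74) and *Kynu* (0.80, 0.77 and 0.71), with adjusted permutation p of Pearson's r from 0.00264 to 0.0172. *Acmsd* (r = 0.45, adjusted permutation p = 0.254) and *Qprt* (r = -0.03, adjusted permutation p = 0.959) did not. In UNT mice (n = 12) the relation passed for *Kmo* (r = 0.73, rho = 0.82, 0.68 without the 2 farthest mice, adjusted permutation p = 0.0195), *Nmnat1* (0.73, 0.68 and 0.64, adjusted permutation p = 0.0195) and *Afmid* (0.67, 0.55 and 0.47, adjusted permutation p = 0.0358, but 0.134 for rho). There *Nampt* passed by rho (0.76, adjusted permutation p = 0.0139) and not by Pearson's r (0.53, adjusted permutation p = 0.132), and *Acmsd* was at r = 0.03. Whether these relations differ between groups was not tested, and the numbering sets, with 3 or 4 mice of a group each, were too small for a value of their own. How many of all tested genes would pass the same test was not counted, so passing is not shown to be particular to the members. The PBS values include replicates 2 and 11, which held adrenal transcripts, and were not computed without both. The gene and the sum come from the same libraries and share their scaling.

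**Figure D4:**
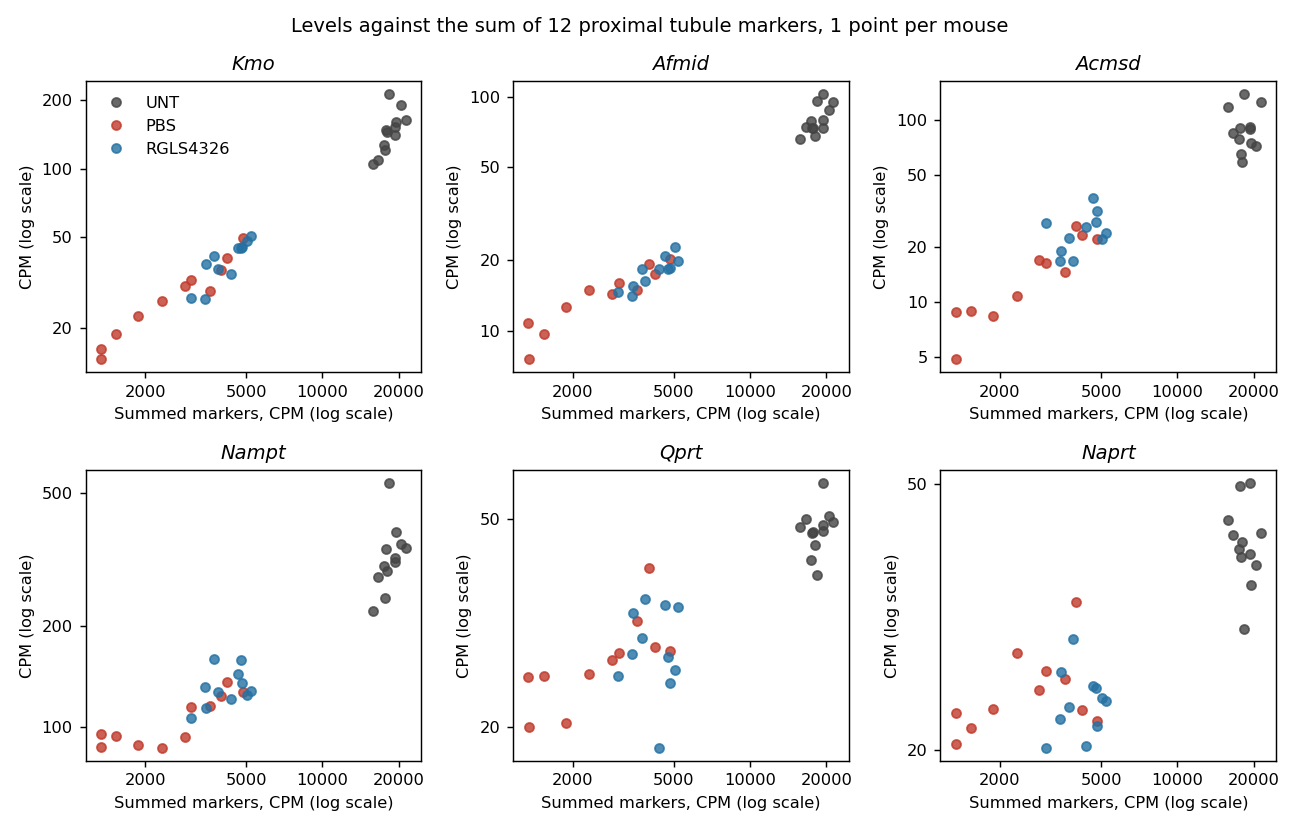
Level of 6 of the genes in CPM (vertical axis, log scale) against the summed CPM of 12 proximal tubule markers (horizontal axis, log scale), 1 point per mouse in UNT, PBS and RGLS4326. *Kmo*, *Afmid* and *Acmsd* climb with the sum among PBS-treated mice (r = 0.97, 0.93 and 0.93), and *Naprt* less so (r = 0.46).

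Over all 34 libraries, after the mean of each group was subtracted, the median of the 45 pairwise correlations among the 10 genes was 0.40, a description over libraries that share depth and scaling. The pairs *Kmo* and *Afmid* (r = 0.86), *Haao* and *Afmid* (0.84) and *Kmo* and *Haao* (0.82) were highest, *Qprt* went most with *Naprt* (0.70), and *Nampt* and *Naprt* were lowest (-0.27). By the same measure the gene most like *Kmo* was *Aldh8a1* (r = 0.95), an aldehyde dehydrogenase. For *Haao* it was *Eci3* (0.93), an isomerase of fatty acid oxidation, for *Afmid* *Gcdh* (0.91), a dehydrogenase of lysine and tryptophan breakdown, and for *Kynu* *Acot4* (0.88), an acyl-CoA thioesterase. *Aspa* (0.86), the aspartoacylase, was most like *Acmsd*. For *Nampt* it was *Ctage5* (0.89), for *Naprt* *Oxld1* (0.88), for *Nadsyn1* *Acp6* (0.82) and for *Nmnat1* *Bmp4* (0.68).

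The genes that feed tryptophan into the route or lead kynurenine aside were counted next. Of 10 such genes, 8 were tested, since *Tdo2* and *Ido1* had too few reads. In PBS vs UNT 7 were called lower and 1 higher. *Ido2*, a tryptophan dioxygenase, fell from 5.35 to 0.36 CPM (log2 fold change -3.83, edgeR adjusted p = 1.75e-14), *Aadat*, a kynurenine aminotransferase, from 1624 to 158 CPM (-3.37, adjusted p = 5.14e-11) and *Slc6a19*, the apical transporter of neutral amino acids, from 280.4 to 46.6 CPM (-2.59, adjusted p = 1.45e-11). The exception was *Slc7a5*, a transporter of large neutral amino acids found in growing cells, which rose from 5.04 to 30.3 CPM (2.59, adjusted p = 7.55e-20). In RGLS4326 vs PBS *Slc6a19* (0.77) and *Slc16a10* (0.23), an aromatic amino acid transporter, were called higher and *Slc7a5* (-0.34) lower, and the other 5 did not pass. Against UNT the treated kidneys had 7 lower, led by *Ido2* (-3.20), *Aadat* (-3.16) and *Slc6a19* (-1.82), and *Slc7a5* (2.25) higher.

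Of 12 other genes of salvage and conversion 11 were tested. In PBS vs UNT 6 were called lower, led by *Slc22a13*, an organic anion transporter (-2.35), *Nadk2*, the mitochondrial NAD kinase (-1.78), and *Nnt*, the transhydrogenase (-1.63). The 3 called higher were *Slc12a8* (1.29), *Nmnat2* (1.27) and *Pnp* (0.17), of which the first 2 were low, at 2.39 and 1.297 CPM in PBS-treated kidney. In RGLS4326 vs PBS *Nadk2* (0.44), *Nmrk1*, the nicotinamide riboside kinase (0.38), *Slc25a51*, the mitochondrial NAD carrier (0.24), and *Nnt* (0.23) were called higher, and *Slc12a8* (-0.65), *Pnp* (-0.23) and *Nadk* (-0.16) lower. In RGLS4326 vs UNT 7 were called lower, led by *Slc22a13* (-1.92), *Nnt* (-1.40) and *Nadk2* (-1.33), and 2 higher, *Nmnat2* (1.22) and *Slc12a8* (0.64). *Nmnat3*, the mitochondrial relative of *Nmnat1*, was at 18.7, 17.3 and 16.1 CPM in UNT, PBS and RGLS4326 mice.

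The 17 genes listed for consumption of NAD and nicotinamide did not share 1 direction. In PBS vs UNT 7 were called higher, led by *Nnmt*, the nicotinamide N-methyltransferase, which rose from 2.51 to 11.7 CPM (2.21, edgeR adjusted p = 2.52e-16), *Bst1* (1.02) and *Sarm1* (0.96, below 1 CPM in every mouse), and 8 lower, led by the mitochondrial sirtuin *Sirt3* (-1.72), the NADH pyrophosphatase *Nudt12* (-1.13) and *Sirt4* (-1.10). In RGLS4326 vs PBS 3 were called higher, *Sirt1* (0.41), *Nudt12* (0.37) and *Tnks2* (0.32), and 3 lower, *Sarm1* (-0.79), *Nnmt* (-0.38) and *Bst1* (-0.24). In RGLS4326 vs UNT the counts were 7 higher, led by *Nnmt* (1.83), *Tnks* (0.85) and *Bst1* (0.78), and 7 lower, led by *Sirt3* (-1.54), *Sirt4* (-0.90) and *Nudt12* (-0.77).

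**Figure D5:**
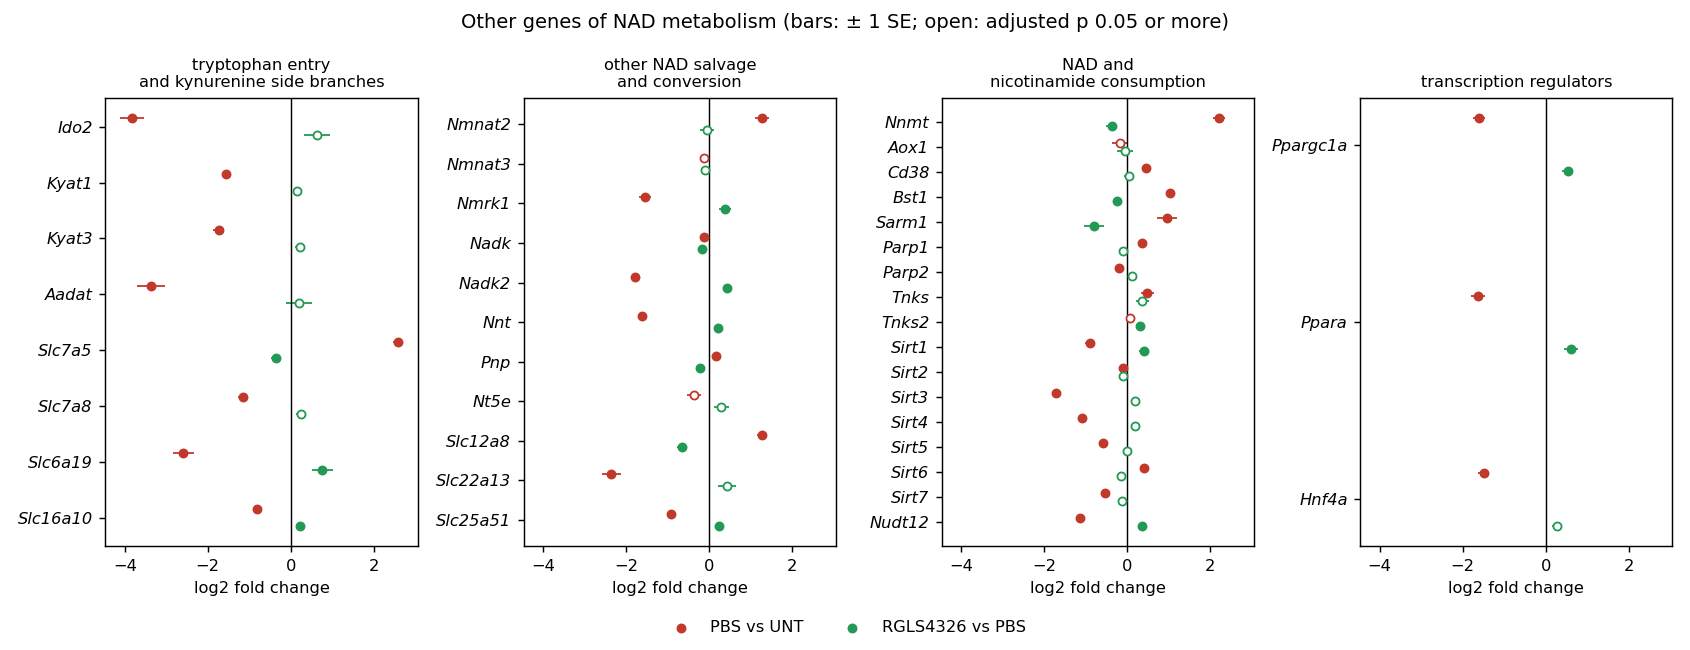
Log2 fold change (horizontal axis, bars of ± 1 SE, open points where the edgeR adjusted p was 0.05 or more) of other tested genes of NAD metabolism in PBS vs UNT and RGLS4326 vs PBS, in 4 lists. *Slc7a5* (2.59) and *Nnmt* (2.21) lie to the right in PBS vs UNT, and *Ido2* (-3.83) and *Aadat* (-3.37) to the left.

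The 3 regulators of renal metabolism reported here all fell in PBS vs UNT. *Ppargc1a*, the coactivator PGC-1alpha, went from 152 to 49.9 CPM (-1.61), *Ppara*, the receptor of fatty acid oxidation, from 216 to 69.9 CPM (-1.62) and *Hnf4a*, a factor of proximal tubule identity, from 696 to 247 CPM (-1.49), with edgeR adjusted p of 3.66e-11 or less. In RGLS4326 vs PBS *Ppara* (0.61, adjusted p = 0.00806) and *Ppargc1a* (0.53, adjusted p = 0.00639) were called higher, and *Hnf4a* (0.28, adjusted p = 0.0844) did not pass. In RGLS4326 vs UNT the same 3 were called lower, *Ppara* at -1.02, *Ppargc1a* at -1.07 and *Hnf4a* at -1.22.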

How the data were processed

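RNA of 34 mouse kidneys was sequenced from stranded mRNA libraries. Per the labels and the study's methods, the authors checked reads with FastQC 0.11.2, trimmed them with Trim Galore, mapped them with STAR to GRCm38 (mm10) and counted reads per gene with HTSeq 0.6.1 (SAMtools 1.1 and Picard 1.119 are also listed). The deposited values are raw read counts, 1 table per mouse, without normalization or pooling. The gene annotation and strand setting are not given in the sources used here. The last 5 lines of each table name no gene, held 20.5 to 36.2% of reads and were left out.

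Counts were scaled by TMM, filtered with filterByExpr and fitted in edgeR 4.0.16 (R 4.3.3, quasi-likelihood F test), all 34 libraries in 1 fit of 3 groups without covariate, with Benjamini-Hochberg adjustment over 15644 genes and calls at 0.05. SE is the absolute log2 fold change divided by the square root of F. Ratios used counts plus 0.5 and permutation tests with 100000 resamples, exact within numbering sets. Replicates are separate mice by their titles, and no pair of tables was identical (0 pairs). DESeq2 1.42.0 was an alternative. The fit was also run on simulated data with known changes, and the outcome is not given here. The members and gene lists were chosen with earlier results of these data known. All members are named, and from the other NAD lists up to 3 called genes a direction with the largest change, with the regulators. Cell type marker lists are given mostly as counts. A listed gene and the promoter sequences are not reported here. *Nnt* in RGLS4326 vs PBS and *Nmnat3* were named after their values were seen. Spread between mice is what the p-values measure. GENCODE M21 gave exon lengths, overlaps and 3′UTRs. Python 3.11.15 with scipy 1.17.1 and matplotlib 3.10.9 was used.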

Additional observations from a re-analysis of the deposited data

How the results depend on the processing

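For the PBS and RGLS4326 comparisons with UNT, all 10 genes were called lower under each alternative run (other scalings, no filter, DESeq2, covariates, each numbering set alone, only the groups compared). Of all genes, between 3471 (library size alone, RGLS4326 vs UNT) and 7308 (no filter, PBS vs UNT) were called lower in these runs. RGLS4326 vs PBS was less stable: of 130 log2 fold changes under alternatives, 97 had the same direction and side of the threshold, 22 kept their direction but were no longer called, 1 was newly called and 10 changed sign, among them *Kmo* in set 2, which also lost its call. These 130 leave out the fits without 1 library. The count of 5 called genes was 2, 1 and 0 within numbering sets 1, 2 and 3 (54, 4065 and 0 of all genes called), 0 when the share of reads outside genes was a covariate (89 of all genes), 1 without PBS replicates 2 and 11 (2836 of all genes, against 5280 with them), and 4 to 6 when any 1 library was left out (4023 to 6209 of all genes). The last 2 alternatives were chosen after seeing the data. With the covariate the log2 fold changes of the 5 genes were 0.28 to 0.59, and without replicates 2 and 11 they were 0.23 to 0.62, against 0.32 to 0.74. The cause of the lower counts was not tested. Changes of sign were *Kmo* -0.0313, *Qprt* -0.00854 and *Nmnat1* -0.00787 in set 2, *Haao* -0.0824, *Qprt* -0.0914 and *Nmnat1* -0.0391 in set 3, *Naprt* 0.15 in set 1 and 0.0378 with the covariate, and *Qprt* -0.00853 and *Nmnat1* -0.0287 without PBS replicates 2 and 11.

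Within sets 1, 2 and 3, where 3 or 4 mice a group leave an exact permutation test little reach, no ratio passed after adjustment. For *Qprt* to *Acmsd* the log2 differences were 2.01, 1.77 and 2.03 (PBS vs UNT), -1.002, -0.71 and -0.75 (RGLS4326 vs PBS) and 1.004, 1.06 and 1.28 (RGLS4326 vs UNT). For *Nampt* to *Qprt* they were -0.69, -0.47 and -1.19, then 0.0770, 0.28 and 0.42, then -0.62, -0.19 and -0.77.

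The replicate block gave 10, 5 and 10 called genes in PBS vs UNT, RGLS4326 vs PBS and RGLS4326 vs UNT. Of all 15644 genes 12781, 5098 and 12162 were called in these fits. Deviations of same-numbered mice correlated above 0.1 in 1, 5 and 3 of 11 pairs, and ran from -0.214 to 0.412 in RGLS4326 vs PBS. Mice with different numbers were not correlated for comparison, so these values cannot settle whether shared numbers pair the mice.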
